A study of Mus musculus with 9 samples.

Results

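Myc and 40 genes of nucleolar ribosome assembly were measured in mouse ear RNA. The 41 genes were taken by symbol, and each matched 1 of the 55401 features of the gene table through its Ensembl identifier. All 41 were among the 21925 genes that passed the filter on low counts and were tested. Messenger RNA was sequenced from ears of C57 mice in 9 libraries, 3 per group. Of these, 3 came from mice given MC903 together with paeonol at 200 mg/kg, 3 from mice given MC903 and 3 from controls given absolute ethyl alcohol. MC903 is calcipotriol, a vitamin D analogue used on mouse skin to model atopic dermatitis, and paeonol is a phenolic compound of peony root bark. No allele or transgene is named in the labels, no group received paeonol without MC903, and no vehicle of paeonol is named. Age, sex, days of treatment and the number of animals behind a library are not stated by the labels. A p-value here reflects the spread between libraries of a group, and that spread may be technical.

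Ribosomes are assembled in the nucleolus. RNA polymerase I copies the ribosomal RNA genes, small nucleolar ribonucleoproteins (snoRNPs) guide chemical modification of the transcript, and large protein assemblies cut and fold it into the small and the large subunit. Myc is a transcription factor that pairs with Max, binds the E-box CACGTG and is known to drive many genes of this pathway in growing cells, including proliferating epidermal keratinocytes. The genes are described by role: the transcription factor Myc (1 gene), RNA polymerase I and its early partners (7), nucleolar scaffold proteins (4), snoRNP proteins (7), small subunit assembly (11) and large subunit assembly (11).

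Library totals were 54.26 to 57.75 M estimated counts. Levels are in CPM, counts scaled to a common library size adjusted by the trimmed mean of M values, given as mean ± SD over n = 3 libraries, or per kilobase of exon (CPM per kb) where genes are compared. A change is the log2 difference between groups with its standard error (SE), from an edgeR quasi-likelihood fit of all genes. Calls were made at a false discovery rate of 0.05 (Benjamini-Hochberg over all tested genes), whatever the size of the change. In bulk tissue, fewer cells of a type and less RNA per cell cannot be told apart. Markers of other cell types differed widely between the groups, and their values stand after the members' results.

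Promoter windows are shown because 7 of the members carry the E-box sequence CACGTG there. Binding of Myc to these windows was not measured. RefSeq windows on GRCm38.p6, running 250 bases before to 50 bases after the annotated start, matched 35 of the 41 genes. No window was matched for Myc, Npm1, Fbl, Rrp12, Bop1 and Tcof1. CACGTG, which reads the same on both strands, was in a window of 7 of the 35 genes (20%): Utp4, Mybbp1a, Nop2, Pno1, Wdr43, Pes1 and Utp20. It was in a window of 2187 of 27025 mouse genes (8.09%) and of 1449 of the 13769 tested genes that had one (10.5%). All 7 were called higher with MC903 than in controls (median log2 change 1.05), as were 27 of the members whose windows lacked it (median 0.90). With paeonol against MC903 alone the medians were -0.65 with the motif and -0.45 without it. With paeonol and MC903 against control they were 0.44 and 0.48. Whether members with and without the motif differ was not tested. The 4 windows below belong to genes described further on. Capitals mark CACGTG, and each sequence is read in the direction of the gene. The windows are chr8:106893390-106893689 on the plus strand for Utp4, chr11:72441077-72441376 on the plus strand for Mybbp1a, chr6:125131633-125131932 on the plus strand for Nop2 and chr11:17211540-17211839 on the minus strand for Pno1.
Utp4: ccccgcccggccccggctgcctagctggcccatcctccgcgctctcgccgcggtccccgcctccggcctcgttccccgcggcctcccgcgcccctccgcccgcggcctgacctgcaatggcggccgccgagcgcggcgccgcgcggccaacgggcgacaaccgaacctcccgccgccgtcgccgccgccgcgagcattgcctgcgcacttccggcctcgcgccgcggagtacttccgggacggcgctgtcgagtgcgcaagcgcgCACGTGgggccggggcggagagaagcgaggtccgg
Mybbp1a: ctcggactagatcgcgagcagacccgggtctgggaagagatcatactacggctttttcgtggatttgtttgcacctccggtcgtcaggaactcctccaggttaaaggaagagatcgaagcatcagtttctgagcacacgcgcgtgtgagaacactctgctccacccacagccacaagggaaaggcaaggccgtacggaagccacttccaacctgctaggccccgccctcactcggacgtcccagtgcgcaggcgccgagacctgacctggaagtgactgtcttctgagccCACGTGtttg
Nop2: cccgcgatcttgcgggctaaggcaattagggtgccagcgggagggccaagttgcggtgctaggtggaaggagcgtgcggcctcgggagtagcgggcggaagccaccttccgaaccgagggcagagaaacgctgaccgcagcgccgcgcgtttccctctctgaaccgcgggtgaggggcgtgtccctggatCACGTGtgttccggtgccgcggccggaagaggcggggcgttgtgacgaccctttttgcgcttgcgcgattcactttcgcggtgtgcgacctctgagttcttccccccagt
Pno1: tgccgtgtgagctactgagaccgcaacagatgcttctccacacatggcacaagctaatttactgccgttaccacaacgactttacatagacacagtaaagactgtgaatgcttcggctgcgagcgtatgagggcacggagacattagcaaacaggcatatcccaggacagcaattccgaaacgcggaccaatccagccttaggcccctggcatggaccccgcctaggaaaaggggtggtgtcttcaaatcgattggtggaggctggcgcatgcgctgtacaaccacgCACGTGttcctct
The motif began 15 bases after the start in Utp4, 40 after it in Mybbp1a, 60 before it in Nop2 and 37 after it in Pno1.

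**Figure D1:**
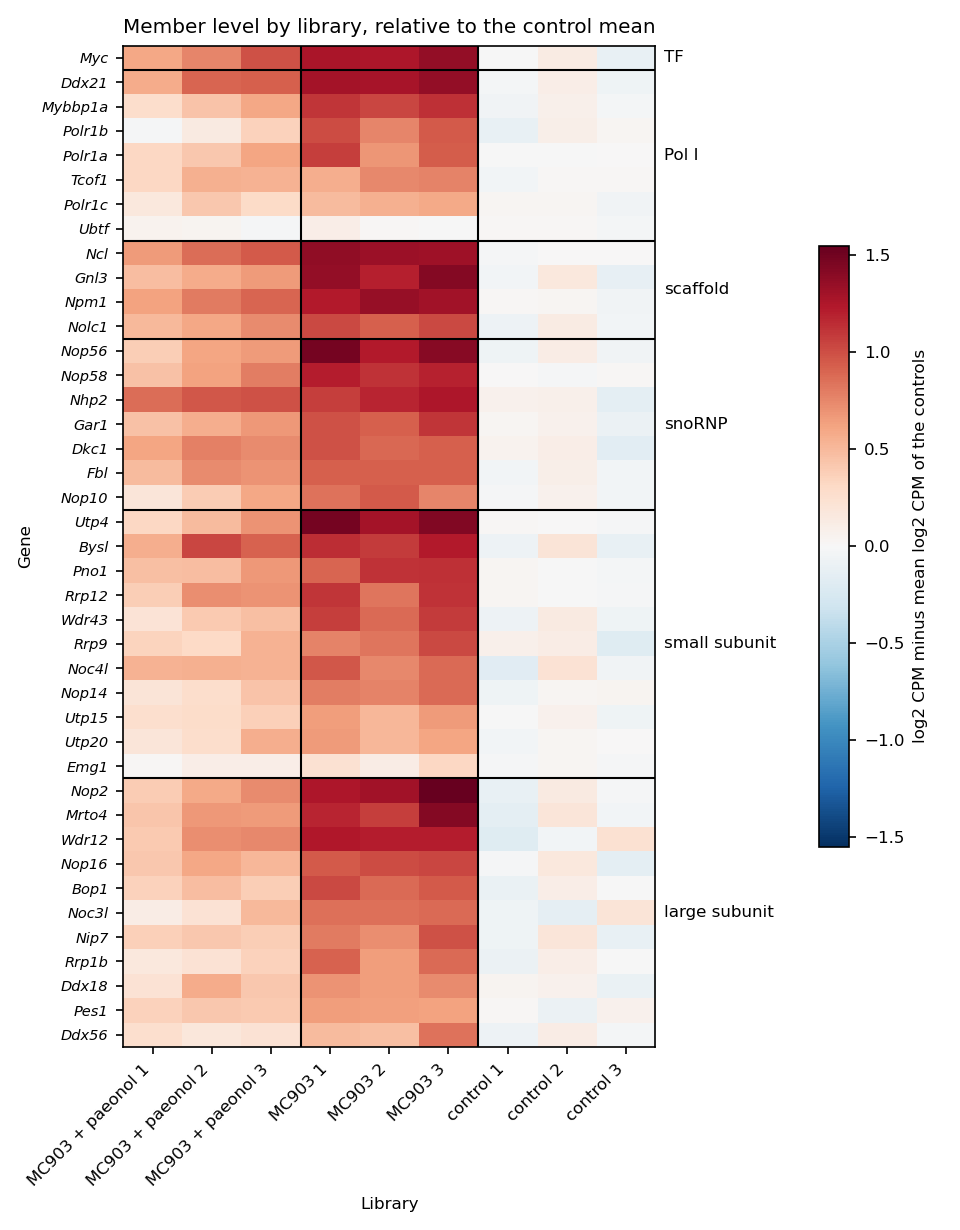
Level of each of the 41 genes in each library, as log2 CPM minus the mean log2 CPM of the controls, with genes in rows by role and libraries in columns. The median over the genes was 0.37, 0.54 and 0.60 in the paeonol libraries, 0.98, 0.89 and 1.02 in the MC903 libraries and -0.03, 0.08 and -0.04 in the controls, and Ubtf stayed near 0 in all 9 under this scaling.

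The first comparison set MC903 ears against control ears. Of the 41 genes, 40 were called higher in MC903 ears and none lower, while 46.8% of all tested genes were called, 23% higher and 23.8% lower. The median change over the 41 was 0.94 on the log2 scale, against -0.02 over all tested genes, with a range of 0.03 to 1.41. In the same 40 genes all 3 MC903 libraries lay above all 3 controls, which held for 28.3% of the tested genes. Ubtf was the gene not called. With scaling by library totals alone, 39 of the 41 were called higher and Ubtf was called lower (-0.16, adjusted p = 0.0408), and the split over all tested genes was 3402 higher and 7224 lower, against 5044 higher and 5215 lower here.

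Myc (ENSMUSG00000022346, GRCm38 chromosome 15, 61985391 to 61990374, plus strand) had 129.6, 129 and 139 CPM in the MC903 libraries, against 53.7, 59.3 and 49.9 CPM in the controls. Every MC903 library held more than any control, and the groups stood far apart relative to their spread. The mean was 132 ± 5.43 CPM in MC903 ears and 54.3 ± 4.69 CPM in controls, 2.44-fold higher with MC903 (log2 change 1.29, SE 0.10, edgeR adjusted p = 1.66e-06).

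Among genes of RNA polymerase I and its partners, 6 of 7 were called higher, with a median change of 0.90. Ddx21, a nucleolar RNA helicase that links polymerase I transcription to processing of the transcript, had 215, 214 and 227 CPM in MC903 ears, against 86.1, 94.5 and 83.8 CPM in controls. Its log2 change was 1.31 (SE 0.09, edgeR adjusted p = 9.93e-07). Mybbp1a, a nucleolar protein that associates with the polymerase I machinery, had 332, 317 and 338 CPM against 149, 163 and 150.7 CPM in controls, a log2 change of 1.09 (SE 0.08, edgeR adjusted p = 1.47e-06). Both genes had well separated groups. Among the polymerase subunits, Polr1b, which forms part of the catalytic core, had 89.4, 74.9 and 86.1 CPM in MC903 ears, against 40.9, 47.2 and 45.5 CPM in controls (log2 change 0.91, SE 0.10). Polr1a, the largest subunit, changed by 0.90, and Polr1c, shared with another nuclear polymerase, by 0.54. Tcof1, the treacle protein that recruits the polymerase, changed by 0.69.

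Ubtf (ENSMUSG00000020923, chromosome 11, 102304560 to 102319742, minus strand) encodes the factor that coats the ribosomal RNA genes and recruits polymerase I. It had 174, 164 and 162 CPM in MC903 ears, against 164, 165 and 158.5 CPM in controls. The 2 groups overlapped. The log2 change was 0.03 (SE 0.05, edgeR adjusted p = 0.637), and it was -0.16 with library totals alone. The means were 166 ± 6.46 CPM with MC903 and 162 ± 3.37 CPM in controls.

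All 4 scaffold genes were called higher, with a median change of 1.31. Ncl, nucleolin, which binds nascent ribosomal RNA, had 1119, 1083 and 1078 CPM in MC903 ears, against 429, 437 and 434 CPM in controls (log2 change 1.34, SE 0.07, edgeR adjusted p = 3.2e-07). Npm1, nucleophosmin, a chaperone of ribosomal proteins, had 687, 745 and 721 CPM against 296, 300.2 and 283 CPM in controls (log2 change 1.29, SE 0.07). The groups of both genes were tight and far apart. Gnl3, nucleostemin, a nucleolar GTPase of dividing cells, had 203, 182 and 212 CPM in MC903 ears, against 76.8, 88.6 and 72.2 CPM in controls (log2 change 1.33, SE 0.09). Nolc1, a chaperone of snoRNPs, changed by 0.99. Processed copies of Npm1 are known in the mouse genome, and it is not stated how reads shared with them were assigned, so its level is uncertain.

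All 7 snoRNP protein genes were called higher, with a median change of 1.00. Nop56, a core protein of the box C/D particles that guide ribose methylation, had 341, 287 and 325 CPM in MC903 ears, against 117, 133 and 118 CPM in controls (log2 change 1.37, SE 0.09, edgeR adjusted p = 8.45e-07). Its lowest MC903 library held more than its highest control. Its particle partners Nop58 and Fbl, the methyltransferase, changed by 1.18 and 0.92. Nhp2, a core protein of the H/ACA particles that guide pseudouridylation, had 118, 127 and 134 CPM against 58.9, 59.5 and 50.6 CPM in controls (log2 change 1.17, SE 0.08). Its partners Gar1, Dkc1, the pseudouridine synthase, and Nop10 changed by 1.00, 0.93 and 0.85. GENCODE M21 places 5 snoRNA genes inside Nop56, 4 inside Nop58, 3 inside Ncl, 3 inside Gnl3, 3 inside Wdr43 and 1 inside Dkc1 on the same strand. The values here are those of the host genes.

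All 11 small subunit genes were called higher, with a median change of 0.87. Utp4 (ENSMUSG00000041438, chromosome 8, 106893636 to 106923088, plus strand) encodes a subunit of the processome that joins the transcript while it is made. It had 94.3, 82.3 and 91.2 CPM in MC903 ears, against 34.0, 33.7 and 33.3 CPM in controls, and its log2 change of 1.41 was the highest of the 41 genes (SE 0.09, edgeR adjusted p = 7.8e-07). Pno1, an RNA-binding factor of the late small subunit precursor, had 56.8, 65.8 and 66.3 CPM against 30.9, 30.2 and 29.8 CPM in controls (log2 change 1.05, SE 0.08). In both genes the controls were nearly level and every MC903 library lay above them. Bysl, bystin, another small subunit assembly factor, changed by 1.14 (SE 0.12). Emg1, a methyltransferase of the small subunit RNA, had 92.5, 84.7 and 98.3 CPM against 77.9, 80.4 and 77.5 CPM in controls, and its log2 change of 0.23 was the lowest among the called genes (SE 0.06, edgeR adjusted p = 0.0136). Emg1 was not called without MC903 library 3 (0.17, adjusted p = 0.0629) or with library totals alone (0.03, adjusted p = 0.689). Exons of Bysl and Emg1 overlap genes on the other strand by 9.37% and 7.21% of their length, and whether counting used strand is not stated.

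All 11 large subunit genes were called higher, with a median change of 0.86. Nop2, a methyltransferase of the large subunit RNA, had 102, 106 and 125 CPM in MC903 ears, against 39.4, 47.1 and 42.1 CPM in controls (log2 change 1.37, SE 0.11, edgeR adjusted p = 2.04e-06). Bop1, Pes1 and Wdr12 form the PeBoW complex of large subunit processing. Bop1 had 79.9, 72.2 and 75.8 CPM against 36.6, 42.4 and 39.4 CPM in controls, a log2 change of 0.94 (SE 0.07). Its groups did not overlap. Wdr12 changed by 1.21 and Pes1 by 0.63. The remaining 7 genes of the role changed by 0.61 to 1.22.

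**Figure D2:**
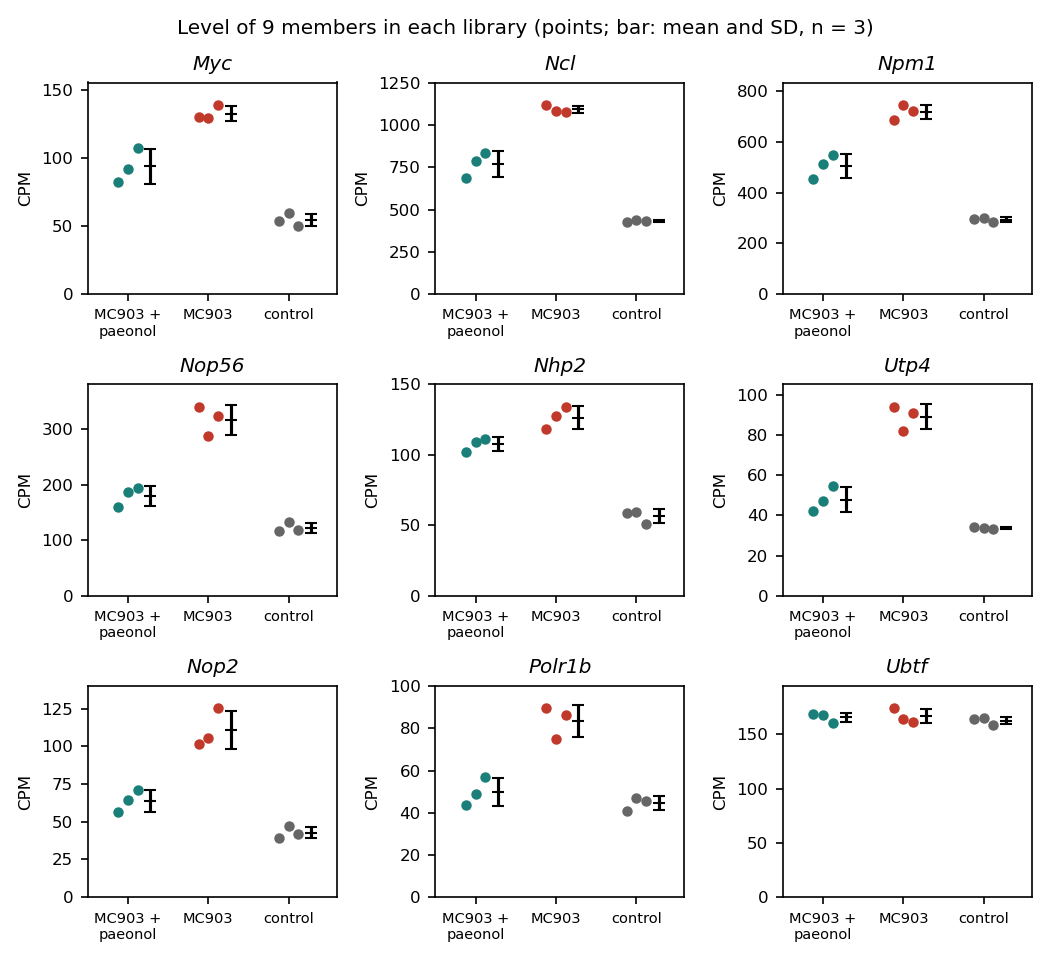
CPM of 9 genes in each library, with mean and SD of the 3 libraries of a group beside the points, on axes that start at 0. In 8 of the genes the MC903 libraries are the highest, while the points of Ubtf overlap between groups.

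Paeonol added to MC903 was then set against MC903 alone. In ears given paeonol, 35 of the 41 genes were called lower and none higher, against 29.7% of all tested genes called, 14.3% lower and 15.3% higher. The median change was -0.48, against 0.00 over all tested genes, with a range of -0.90 to -0.01. All 3 paeonol libraries lay below all 3 MC903 libraries in 39 genes, which held for 22% of the tested genes. Ubtf and Utp20 overlapped. Not called were Ubtf, Emg1, Utp20, Tcof1, Dkc1 and Bysl.

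Myc had 82.3, 91.4 and 107 CPM in the paeonol libraries, against 129.6, 129 and 139 CPM with MC903 alone. The highest paeonol library stayed under the lowest MC903 library. The means were 93.7 ± 12.6 CPM with paeonol and 132 ± 5.43 CPM without it, a ratio of 0.708 (log2 change -0.50, SE 0.10, edgeR adjusted p = 0.00221). The library with the lowest Myc level in the paeonol group was the lowest of that group in 38 of the 41 genes, Myc among them. How often this library was the lowest over all tested genes was not counted. On the log2 scale relative to the control mean, the median of all tested genes was -0.003 in it. That median was -0.02 and -0.03 in the other paeonol libraries. Its factor from the trimmed mean of M values was 0.992, against 0.970 and 0.947 in the others, and a higher factor gives a lower CPM.

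The largest decreases came from several roles. Utp4 had 42.1, 47.1 and 54.6 CPM with paeonol, against 94.3, 82.3 and 91.2 CPM with MC903 alone (log2 change -0.90, SE 0.09, edgeR adjusted p = 4.04e-05). Nop56 had 159, 186 and 193 CPM with paeonol, against 341, 287 and 325 CPM with MC903 alone (log2 change -0.82, SE 0.09, edgeR adjusted p = 6.47e-05). Nop2 had 56.3, 64.5 and 71.1 CPM against 102, 106 and 125 CPM with MC903 alone, a log2 change of -0.79 (SE 0.11). None of these 3 genes had overlapping groups. Gnl3 had 109.7, 117 and 125 CPM with paeonol, against 203, 182 and 212 CPM without it (log2 change -0.76, SE 0.09). Polr1b had 43.9, 48.8 and 57.2 CPM with paeonol, against 89.4, 74.9 and 86.1 CPM without it (log2 change -0.74, SE 0.10).

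By role, 5 of the 7 polymerase I genes, 4 of the 4 scaffold genes, 6 of the 7 snoRNP genes, 8 of the 11 small subunit genes and 11 of the 11 large subunit genes were called lower with paeonol. Their median changes were -0.45, -0.51, -0.44, -0.41 and -0.54 in that order. Mybbp1a had a log2 change of -0.65 (SE 0.08, edgeR adjusted p = 0.00013), Ddx21 of -0.50, Ncl of -0.51, Npm1 of -0.51, Pno1 of -0.51 and Bop1 of -0.54, all called. Among core H/ACA and C/D proteins, Nhp2 changed by -0.23 (SE 0.08, edgeR adjusted p = 0.0393) and Fbl by -0.28, both called. The call of Nhp2 ended when paeonol library 1 or 2 or MC903 library 2 or 3 was left out (adjusted p 0.142, 0.0825, 0.0988 and 0.145) and with library totals alone, and those of Polr1c, Noc4l and Ddx18 ended in several such fits. Dkc1 was at -0.22 (edgeR adjusted p = 0.0542), Tcof1 at -0.22 (0.0687), Utp20 at -0.24 (0.0633), Bysl at -0.30 (0.0866) and Emg1 at -0.15 (0.11), none of them called. Utp20, an assembly factor of the small subunit, was called without paeonol library 3 (-0.36, adjusted p = 0.00358). Ubtf had 168, 168 and 160.5 CPM with paeonol, against 174, 164 and 162 CPM with MC903 alone, at -0.01 (SE 0.05, edgeR adjusted p = 0.937), and at 0.02 with library totals alone. The count of 35 became 31 when paeonol library 1 or MC903 library 3 was left out.

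**Figure D3:**
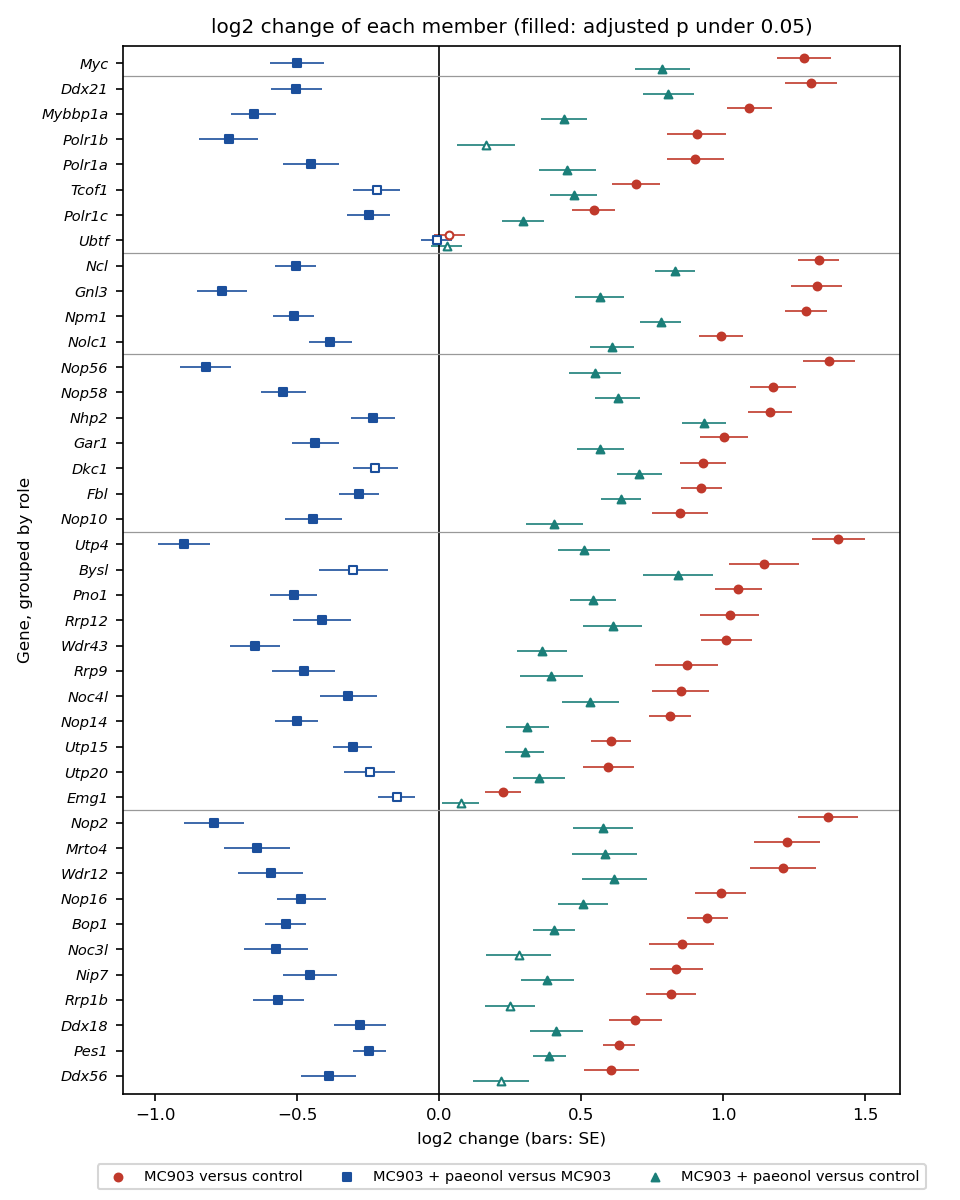
Log2 change of each of the 41 genes in the 3 comparisons, with SE as bars, on a linear axis with genes by role; filled symbols mark an adjusted p under 0.05. MC903 against control lies between 0.03 and 1.41, paeonol with MC903 against MC903 between -0.90 and -0.01, and paeonol with MC903 against control between 0.03 and 0.93.

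The levels reached with paeonol and MC903 were also set against controls. This comparison shares its libraries with those above, so its counts are not independent of them. In ears given paeonol and MC903, 35 of the 41 genes were called higher than in controls and none lower, against 30.9% of all tested genes called, 16.3% higher and 14.5% lower. The median change was 0.51, against -0.03 over all tested genes, with a range of 0.03 to 0.93. All 3 paeonol libraries lay above all 3 controls in 37 genes, which held for 22.8% of the tested genes. Not called were Ubtf, Emg1, Ddx56, Rrp1b, Noc3l and Polr1b.

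Myc had 82.3, 91.4 and 107 CPM with paeonol and MC903, against 53.7, 59.3 and 49.9 CPM in controls, with no overlap (log2 change 0.79, SE 0.10, edgeR adjusted p = 0.000168). Nhp2 had the highest change of the 41, with 102, 109 and 111 CPM against 58.9, 59.5 and 50.6 CPM in controls (log2 change 0.93, SE 0.08, edgeR adjusted p = 2.46e-05). Bysl had 30.6, 42.5 and 39.1 CPM against 19.6, 23.8 and 19.2 CPM in controls (log2 change 0.84, SE 0.12). Paeonol library 1 was well below the other 2 and still above every control. Ncl had 687, 788 and 836 CPM against 429, 437 and 434 CPM in controls (log2 change 0.83, SE 0.07), and Ddx21 had 131, 164 and 167 CPM against 86.1, 94.5 and 83.8 CPM (log2 change 0.81, SE 0.09). Polr1b had 43.9, 48.8 and 57.2 CPM against 40.9, 47.2 and 45.5 CPM in controls, with overlapping groups (log2 change 0.17, SE 0.10, edgeR adjusted p = 0.26).

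By role, the median change against control was 0.44 for polymerase I genes (5 of 7 called higher), 0.69 for scaffold genes (4 of 4), 0.63 for snoRNP genes (7 of 7), 0.39 for small subunit genes (10 of 11) and 0.40 for large subunit genes (8 of 11). In the large subunit group, Rrp1b at 0.25 (edgeR adjusted p = 0.0522), Noc3l at 0.28 (0.0864) and Ddx56 at 0.22 (0.116) did not pass. Utp4 changed by 0.51, Nop56 by 0.55, Nop2 by 0.58, Gnl3 by 0.57, Mybbp1a by 0.44, Pno1 by 0.54, Npm1 by 0.78 and Bop1 by 0.40, all called. This comparison depended on scaling: with library totals alone, 26 of the 41 genes were called, the median change was 0.34 and Ubtf stood at -0.13. The split over all tested genes was then 2155 higher and 5354 lower, against 3578 and 3187.

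Per kilobase of exon, the level in MC903 ears was highest for Npm1 at 269 CPM per kb, followed by Nhp2 at 110.3, Ncl at 107 and Nop56 at 77.5 CPM per kb. Myc stood at 48.7 CPM per kb there. In ears given paeonol and MC903 the levels were 189 CPM per kb for Npm1, 93.8 for Nhp2, 75.6 for Ncl, 43.8 for Nop56 and 34.5 for Myc. In controls they were 110.0 CPM per kb for Npm1, 49.2 for Nhp2, 42.5 for Ncl, 29.9 for Nop56 and 20.0 for Myc. Wdr12 was lowest, with 3.10 CPM per kb with paeonol and MC903, 4.67 with MC903 and 2.02 in controls. Nhp2 and Ncl differed in MC903 ears by less than the SD of Nhp2 (7.08 CPM per kb). Lengths cover all annotated exons of a gene, so levels of genes with long, rarely used exons are understated.

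Other genes of the pathway, taken from textbook lists, were counted the same way. For comparison, 23% of all tested genes were called higher with MC903 than in controls. With paeonol, 14.3% were called lower than with MC903 alone and 16.3% higher than in controls. Of 42 further small subunit genes, 39 were called higher in MC903 ears than in controls and 0 lower, with a median change of 0.57. With paeonol, 28 of the 42 were called lower than with MC903 alone (median -0.31), and 27 were called higher than in controls (median 0.30). Wdr36, a processome subunit, averaged 80.4 CPM with paeonol and MC903, 119 CPM with MC903 and 48.9 CPM in controls. Heatr1, another processome subunit, averaged 57.1, 93.2 and 42.8 CPM in the same order. Nob1, the endonuclease of the last small subunit cut, averaged 48.9 CPM with paeonol and MC903 and 69.0 CPM with MC903 alone, and Nol11, a processome subunit, 37.9 CPM with paeonol and MC903 and 25.1 CPM in controls. Of 35 further large subunit genes, 31 were called higher with MC903 than in controls (median 0.65), 25 lower with paeonol than with MC903 alone (median -0.31) and 26 higher with paeonol and MC903 than in controls (median 0.32). With library totals alone, 11 of the small subunit genes were called higher with paeonol and MC903 than in controls, and of the large subunit genes 11 were called higher and 3 lower. The export adaptor Nmd3 and the assembly factor Rrs1 changed by 1.09 and 1.23 in MC903 ears against controls (SE 0.08 and 0.10). Ppan, a large subunit assembly factor, averaged 64.1 CPM with paeonol and 113 CPM with MC903 alone (log2 change -0.81, SE 0.08, edgeR adjusted p = 4.35e-05). Sdad1, another such factor, changed by -0.48 in that comparison, and Ftsj3, a methyltransferase of ribosome assembly, by 0.49 with paeonol and MC903 against control.

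Of 11 other polymerase I genes, 6 were called higher in MC903 ears than in controls and 0 lower (median 0.57), 4 lower with paeonol than with MC903 alone (median -0.21) and 6 higher with paeonol and MC903 than in controls (median 0.30). The shares of all tested genes were 23% higher, 14.3% lower and 16.3% higher in that order. With library totals alone, 6 were called higher and 1 lower with MC903 than in controls, and 4 higher and 3 lower with paeonol and MC903 than in controls. Taf1d, a subunit of the promoter selectivity factor of polymerase I, averaged 138 CPM with paeonol and MC903, 225 CPM with MC903 and 98.5 CPM in controls. Its change was 1.19 with MC903 against control (SE 0.07, edgeR adjusted p = 5.11e-07) and -0.70 with paeonol against MC903 (SE 0.07). Polr1d, a polymerase subunit, changed by 0.70 with paeonol and MC903 against control. Rrn3, the initiation factor that ties polymerase I to its promoter, had 62.3, 65.3 and 65.7 CPM with paeonol, against 76.2, 71.1 and 75.6 CPM with MC903 alone (log2 change -0.21, SE 0.06, edgeR adjusted p = 0.0187). That call was lost when paeonol library 1, MC903 library 1 or MC903 library 3 was left out (adjusted p 0.0772, 0.0595 and 0.0635). The count of 4 was 1 without paeonol library 1 or MC903 library 3, and 2 without MC903 library 1, without the filter on low counts or with scaling by library totals alone. Those smaller counts are near the share of all tested genes called lower.

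Among 17 textbook targets of Myc outside the nucleolus, 16 were called higher in MC903 ears than in controls and 0 lower, with a median change of 0.88. Shmt2, a mitochondrial enzyme of folate metabolism, had 171, 189 and 199.5 CPM in MC903 ears, against 46.3, 46.1 and 49.2 CPM in controls (log2 change 1.98, SE 0.11, edgeR adjusted p = 4.23e-07). With paeonol it had 74.7, 97.8 and 103 CPM, below every MC903 library (log2 change -1.02, SE 0.11, edgeR adjusted p = 5.79e-05). Odc1, the first enzyme of polyamine synthesis and a classical Myc target, averaged 108 CPM in MC903 ears and 92.0 CPM in controls, a log2 difference of 0.23 that was not called (SE 0.12, edgeR adjusted p = 0.146). Odc1 is named, after its values were seen, as the gene left out of that count. Its difference was 0.36 without MC903 library 1 (adjusted p = 0.0187, called), 0.08 without MC903 library 3 (adjusted p = 0.557) and 0.04 with library totals alone (adjusted p = 0.805). With paeonol, 14 of the 17 were called lower than with MC903 alone (median -0.33) and 15 higher than in controls (median 0.52). The shares of all tested genes in these 2 comparisons were 14.3% lower and 16.3% higher, and 23% were called higher with MC903 than in controls. Pa2g4, a growth regulator, changed by 1.18 with MC903 and by 0.86 with paeonol and MC903, each against control. Its protein is also nucleolar, so this list is not wholly outside the nucleolus. Nme1, a nucleoside diphosphate kinase, changed by 1.01 with paeonol and MC903 against control, and C1qbp, a mitochondrial matrix protein, by -0.55 with paeonol against MC903.

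The partners, relatives and antagonists of Myc were counted in the same way. Of 12 genes, 3 were called higher and 5 lower in MC903 ears than in controls (median -0.01), 5 higher and 2 lower with paeonol than with MC903 alone (median 0.28), and 5 higher and 2 lower with paeonol and MC903 than in controls (median 0.18). Over all tested genes, 23% were called higher and 23.8% lower in the first of these comparisons, 15.3% and 14.3% in the next, and 16.3% and 14.5% in the last, so several of these counts are near the share of all genes. With library totals alone, 2 were called higher and 6 lower in MC903 ears than in controls, 6 higher and 2 lower with paeonol than with MC903 alone, and 2 higher and 3 lower with paeonol and MC903 than in controls. Max, the obligate partner of Myc, named after its values were seen, averaged 84.6 CPM in MC903 ears and 77.4 CPM in controls, and was not called (log2 difference 0.13, edgeR adjusted p = 0.253). Fbxw7, the ubiquitin ligase subunit that marks Myc protein for degradation, had 42.3, 38.6 and 39.8 CPM in MC903 ears, against 57.1, 57.9 and 55.1 CPM in controls (log2 change -0.50, SE 0.06, edgeR adjusted p = 5.3e-05). With paeonol it had 56.2, 55.5 and 53.9 CPM, above every MC903 library (log2 change 0.46, SE 0.06, edgeR adjusted p = 0.000253). Mxi1, a Max partner that opposes Myc, had 98.9, 97.5 and 93.3 CPM with paeonol, against 59.0, 66.4 and 59.0 CPM with MC903 alone (log2 change 0.65, SE 0.09). Mxd4 and Mxd3 are Max partners of the same kind. Mxd4 changed by -0.66 with MC903 against control (SE 0.09), and Mxd3 by 0.73 with paeonol and MC903 against control (SE 0.14). The 7 calls in paeonol and MC903 against control were 4 without paeonol library 2 or 3 or control 3 and 3 without control 2.

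The other Myc family genes, which were picked out after their values were seen, were lower in MC903 ears. Mycl had 17.8, 15.7 and 10.6 CPM in MC903 ears, against 53.7, 38.6 and 49.2 CPM in controls (log2 change -1.68, SE 0.22, edgeR adjusted p = 0.000213). With paeonol it had 53.0, 44.3 and 35.9 CPM, above every MC903 library (log2 change 1.60, SE 0.22, edgeR adjusted p = 0.000667). Mycn was scarce in every library, with 0.391, 0.554 and 0.762 CPM in MC903 ears, against 1.06, 1.79 and 1.82 CPM in controls (log2 change -1.44, SE 0.39). With paeonol it had 1.17, 2.45 and 1.69 CPM (log2 change 1.63 against MC903 alone, SE 0.39, edgeR adjusted p = 0.00808). Mxd1, another Max partner that opposes Myc, also picked out afterwards, averaged 93.1 CPM with paeonol and MC903, 96.5 CPM with MC903 and 48.1 CPM in controls. It was called higher than control in both treated groups.

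**Figure D4:**
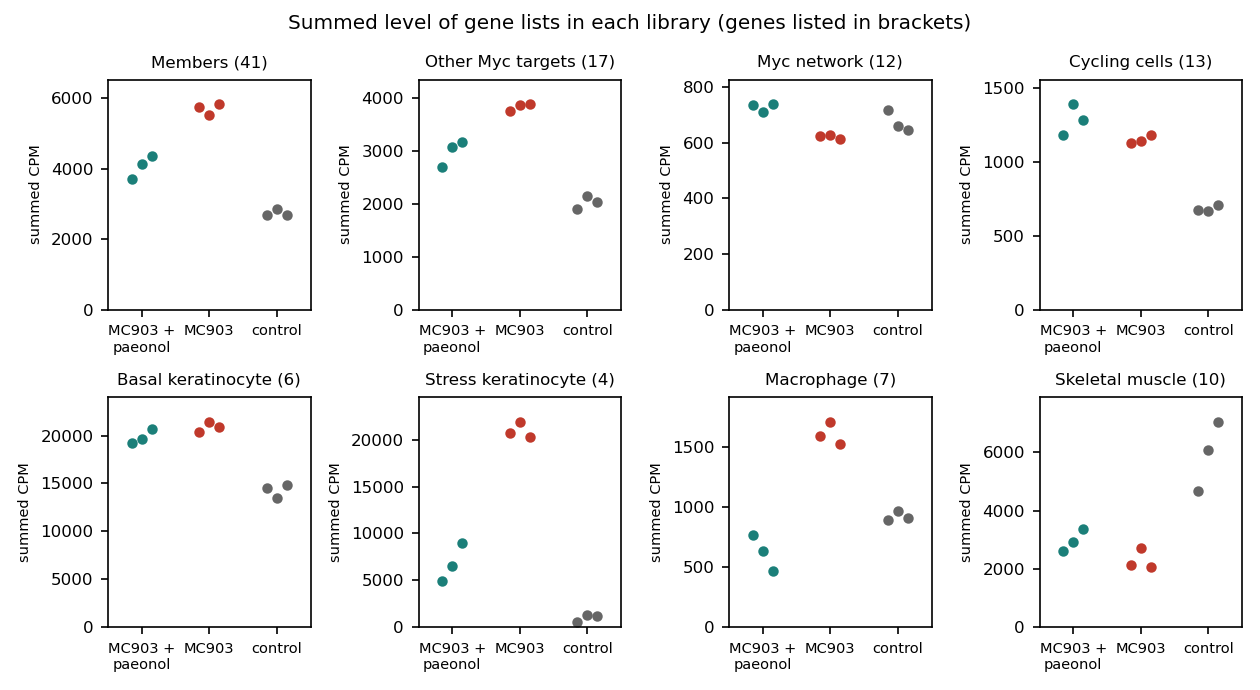
Summed CPM of 8 gene lists in each library, with axes from 0 and the number of genes in brackets; cycling genes are those of DNA replication and mitosis. The 41 members sum to 3692 to 4348 CPM with paeonol and MC903, 5527 to 5823 CPM with MC903 and 2672 to 2848 CPM in controls, while cycling genes sum to 1179 to 1390, 1129 to 1181 and 665 to 708 CPM in that order.

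Genes of cycling cells rose with MC903: all 13 were called higher than in controls, against 23% of all tested genes, with a median change of 0.81. Mki67, a protein of proliferating nuclei, chosen after its values were seen, had 264, 243 and 225 CPM in MC903 ears, against 144, 131 and 143 CPM in controls. With paeonol, 0 of the 13 were called lower than with MC903 alone and 4 were called higher, Top2a, Pcna, Mcm6 and Ccna2, with a list median of 0.11. In that comparison 14.3% of all tested genes were called lower and 15.3% higher. Those 4 calls became 2 in a fit of only these groups and 1 to 2 when paeonol library 2 or 3 or MC903 library 1 or 2 was left out. Such counts are near the share of all tested genes called higher. Mki67 had 241, 295 and 253 CPM with paeonol, overlapping the MC903 libraries (log2 difference 0.11, SE 0.09, edgeR adjusted p = 0.386). All 13 were called higher with paeonol and MC903 than in controls, against 16.3% of all tested genes, with a median of 0.95. Whether the paeonol change of the nucleolar genes differs from that of cycling genes was not tested.

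Markers of other cells moved between the same groups. Basal keratinocyte markers (6 genes) summed to 19200 to 20650 CPM with paeonol and MC903, 20340 to 21450 CPM with MC903 and 13520 to 14790 CPM in controls. Of these 6 genes, 2 were called higher and 2 lower with MC903 than in controls (median log2 change -0.01). The higher sum in MC903 ears therefore does not stand for each basal gene. Stress keratins (4 genes) summed to 4937, 6475 and 9018 CPM with paeonol and MC903, 20240 to 21920 CPM with MC903 and 575 to 1267 CPM in controls. Macrophage markers (7 genes, all called higher with MC903 than in controls and all lower with paeonol than with MC903 alone) summed to 471 to 766 CPM with paeonol and MC903, 1524 to 1713 CPM with MC903 and 895 to 969 CPM in controls. Both of these lists stood highest in the MC903 libraries. In paeonol library 1, stress keratins were at 4937 CPM, the lowest of the paeonol libraries, and macrophage markers at 766 CPM, the highest of them. This is 1 library, and a link with the members' levels was not tested. Skeletal muscle markers (10 genes) summed to 2609 to 3377, 2051 to 2708 and 4684 to 7051 CPM in that order, and fibroblast markers (6 genes) to 4062 to 5128, 2730 to 3832 and 8298 to 9080 CPM. Of the fibroblast markers, 1 was called higher and 4 lower with MC903 than in controls. With paeonol, 3 of the fibroblast markers were called higher and 1 lower than with MC903 alone. Suprabasal keratinocyte markers (6 genes) summed to 26250 to 30440, 5625 to 12980 and 6706 to 10010 CPM, and sebaceous gland markers (5 genes) to 2812 to 3873, 536 to 1201 and 5229 to 6974 CPM. Of the suprabasal markers, 1 was called higher and 2 lower with MC903 than in controls. Endothelial markers (4 genes) summed to 98.2 to 143, 195 to 217 and 176 to 209.8 CPM, neutrophil markers (6 genes) to 270.2 to 307, 258 to 375 and 91.4 to 337 CPM and T cell markers (6 genes) to 15.8 to 26.8, 21.4 to 29.6 and 30.1 to 34.2 CPM. Of the T cell markers, 3 were called higher and 2 lower with MC903 than in controls (median log2 change 0.39), so their sum does not stand for each gene. Of the 5 neutrophil markers that were tested, 3 were called higher and 0 lower with MC903 than in controls (median log2 change 1.56), although the sums overlapped. With paeonol, 1 of these neutrophil markers was called higher and 2 lower than with MC903 alone. Adipocyte markers (6 genes) summed to 128 to 163, 133 to 170.1 and 258 to 371 CPM and Schwann cell markers (4 genes) to 237 to 256, 164 to 173 and 506 to 603 CPM. Although the adipocyte sums of the first 2 groups overlapped, 3 of the genes were called higher and 1 lower with paeonol than with MC903 alone (median 0.74). Cartilage markers (5 genes) summed to 156 to 227, 126 to 146 and 243 to 308 CPM and were present, as in ear tissue, except Matn1, which was at 0 in all libraries. The part of these cell types in the members' changes was not tested.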

How the data were processed

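The authors deposited a table of whole numbers per gene, taken here as estimated counts, which were not scaled across libraries. The value 4 was enriched: it occurred 1.90 to 2.23 times as often as its neighbours did on average. Other multiples of 4 were not counted here. The submitters' processing notes name StringTie 1.3.4d, HISAT2 2.0.4, cutadapt and the build GRCm38. What each did, which annotation was used and whether counting used strand is unstated there. Per the labels' protocols, RNA was extracted with Trizol, had an integrity number over 7.0, was selected with oligo(dT) and was copied with dUTP in the second strand.

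Groups were read from the treatment labels. Symbols came from GENCODE M21 (55141 of 55401 features matched); 33888 features had any count. After filterByExpr (minimum count 10, minimum total 15), all 9 libraries were fitted in edgeR 4.0.16 (R 4.3.3, data.table version 1.17.8) with TMM factors of 0.942 to 1.09, a robust quasi-likelihood fit and two-sided F tests adjusted over 21925 genes. The biological coefficient of variation was 0.214 overall. The SE was taken from the change and its F value. Alternatives were DESeq2 1.42.0, edgeR with DESeq2 size factors, library totals alone, no filter, a mean CPM of at least 1, counts divided by 4, fits of 2 groups, the replicate number as a block, and each library left out. The code was tested on simulated data.

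Pairs of replicates within a group gave chi-square values of 6.51 to 14.4 per degree of freedom (counts divided by 4), so no library was a duplicate of another of its group. Pairs across groups were not compared in this way. Named genes are Myc, the 5 largest called changes per comparison and direction, and the smallest p-values per role and per pathway list. The highest and lowest level per kilobase are also named, and some further members are given in short. Ubtf and Emg1 fall outside this rule. They are given as the gene not called and the called gene of smallest change in MC903 against control. Other genes outside the rule are marked where they are named. The members and lists were chosen with earlier results of these data known. Exons of Bysl (9.37%), Emg1 (7.21%), Nop14 (5.27%), Pes1 (4.56%) and Nhp2 (3.84%) overlap genes on the other strand, so their levels are uncertain.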

Additional observations from a re-analysis of the deposited data

How the results depend on the processing

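With MC903 against control, 39 to 40 of the 41 genes were called under every alternative run (Ubtf among them, as lower, with library totals alone), and with each library left out the median log2 change was 0.92 to 1.00. With paeonol against MC903, 31 to 36 were called and the median was -0.54 to -0.41 with libraries left out. With paeonol and MC903 against control, 34 to 37 were called with libraries left out (median 0.44 to 0.56) and 26 to 36 otherwise.

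With scaling by library totals alone, the median of all tested genes became -0.21 for MC903 against control and -0.20 for paeonol and MC903 against control, and the members' medians became 0.75 and 0.34. For paeonol against MC903 this scaling gave 33 calls and a median of -0.45, against 31 calls without paeonol library 1 or MC903 library 3. Under this scaling Ubtf stood at -0.16 (called lower, adjusted p = 0.0408), 0.0207 and -0.135 in MC903 against control, paeonol against MC903 and paeonol with MC903 against control, and Emg1 at -0.087 in the last. The calls of Polr1c, Nop10, Nop14, Wdr43, Utp20, Utp15, Rrp9, Ddx18 and Nip7 in the last ended. Between paeonol and MC903, Ubtf changed sign without paeonol library 3 (0.0138) or MC903 library 1 (0.0243), and otherwise reached -0.0287 with 1 library left out. Scaling by library totals alone leaves out the TMM factors. These were 1.08 to 1.09 in the controls, 0.942 to 0.957 in the MC903 libraries and 0.947 to 0.992 in the paeonol libraries. Why the factors differ between the groups was not tested, nor was the cause of the shifts with a library left out.

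The replicate numbers do not pair libraries across groups: deviations of same-numbered libraries correlated at -0.01 to 0.04 over 9 pairs, and the same number correlated best in 6 of 18 combinations. In the fit with a replicate block, 40, 34 and 36 of the 41 genes were called in MC903 against control, paeonol against MC903, and paeonol with MC903 against control. In paeonol against MC903 the block ended the calls of Nhp2 and Ddx18 and added Tcof1, and in the last comparison it added Noc3l. Not called as reported, Dkc1, Bysl, Emg1, Tcof1 and Utp20 in paeonol against MC903, and Rrp1b and Noc3l in the last comparison, passed in at least 1 alternative. The lowest group mean of any member was 18.1 CPM (Rrp9 in controls).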
